A study of Mus musculus with 3 samples.

Results

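Adipoq, Fabp4, Car3, Lipe, Lpl, Lep, Gpd1, Pck1 and Fabp5 are 9 genes of fat cells and of lipid storage. They are described here in lungs of mice that carried a B16 tumour (a mouse melanoma line) or an LLC tumour (Lewis lung carcinoma cells, from a tumour of mouse lung) under the skin of the back, and in normal lung. All probe sets whose only gene symbol is one of the 9 were taken, which gave 12 of the 12422 non-control probe sets and 9 of the 8251 genes on the Affymetrix mouse array. The genes were chosen by their signals on these same 3 arrays, which were known, so every value below is a description and none is tested. The lungs are called the B16 lung, the LLC lung and the control lung, with 1 array each, hence no replicates, no standard deviations and no p-values. The differences describe 3 RNA samples and not the conditions. The labels give no strain, age, sex, time after injection or number of mice, so whether animals were pooled is unknown. Both tumour-bearing lungs are set against the same control array, and the lung was sampled as whole tissue.

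Fat cells store triglyceride in lipid droplets and release it as fatty acids on hormonal demand. Circulating triglyceride is first cut by lipoprotein lipase at the capillary wall, fatty acids are carried inside cells by small binding proteins, and glycerol 3-phosphate supplies the backbone on which new triglyceride is built. In lung, fat cells lie around large airways, vessels and the mediastinum, while several of the same genes are known from other lung cells: Fabp4 from endothelium and macrophages, Fabp5 and Lpl from macrophages, and Plin2 from lipid-laden fibroblasts and alveolar cells. Car3 is also a gene of slow muscle and liver, and Pck1 and Gpd1 are also genes of liver.

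Adipoq and Lep encode the hormones of the fat cell, and their readings differ below. To show the regions from which these genes are read, the 250 bases before the annotated start of each are printed 5′ to 3′ on the gene's strand, from RefSeq on build GRCm38.p6. Of the 9 genes, Adipoq, Lipe, Lep and Pck1 matched an entry. The Adipoq window is chr16:23146286-23146535 on the plus strand and the Lep window chr6:29059971-29060220 on the plus strand.
Adipoq: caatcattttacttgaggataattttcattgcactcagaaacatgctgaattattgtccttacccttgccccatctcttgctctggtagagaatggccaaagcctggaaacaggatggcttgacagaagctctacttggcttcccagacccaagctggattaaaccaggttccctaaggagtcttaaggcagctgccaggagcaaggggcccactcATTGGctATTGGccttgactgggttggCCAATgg
Lep: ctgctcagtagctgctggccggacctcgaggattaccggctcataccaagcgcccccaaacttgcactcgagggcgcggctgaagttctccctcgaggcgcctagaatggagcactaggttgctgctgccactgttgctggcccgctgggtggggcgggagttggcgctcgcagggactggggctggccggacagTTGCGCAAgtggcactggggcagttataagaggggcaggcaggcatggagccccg
Capitals mark matches, on either strand, to the searched motifs, which were the TATA box with the letters TATAAA, the CCAAT box, the nuclear receptor element AGGTCA and the C/EBP core TTGCNNAA. The motifs do not contain each other. Adipoq holds 3 CCAAT boxes, at 34 to 30, 27 to 23 and 7 to 3 bases before the start, and 33.8% of the 32851 windows of equal length hold at least 1. Lep holds a C/EBP core at 55 to 48 bases before the start that reads as a match on both strands, and 9.56% of all windows hold one. TATAAA is found in 12.4% of the windows and AGGTCA in 14.0%, and neither in these 2. A match is a string of letters in this window and not evidence of binding.

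Signals are the deposited intensities after 1 scaling factor per array, in array units. They are compared only within a probe set, or as sums over the same probe sets. Such sums are set mostly by the brightest probe sets of a list and are descriptions only. A floor of 23.6, the 40th percentile of all scaled values, stands for the lowest signal used. Below it a probe set counts as not measured. The 3 arrays were alike in overall signal: 7303, 7539 and 7517 probe sets lay above the floor in the B16, LLC and control lung. Lung identity was clear on each array. The surfactant gene Sftpc read 7482 in the B16 and 7298 in the LLC lung, against 6206 in the control lung, and all 7 lung epithelium markers with a probe set were above the floor on all 3 arrays. Liver transcripts set the LLC array apart. Of the 18 hepatocyte markers on the array, 14 were above its floor, against 6 in the B16 and 5 in the control lung, among them albumin (Alb) at 1327, which was below the floor in the other lungs. Summed over all 18, with negative signals as 0 and others as read, they gave 3733 there, against 486.4 in the B16 and 554.5 in the control lung. The 21 muscle markers on the array, summed likewise, were low in both tumour-bearing lungs, at 1299 in the B16 and 990.8 in the LLC lung, against 2236 in the control lung.

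Of the 12 probe sets, 10 lay above the floor on all 3 arrays and 2 on none. All 9 genes were measured through at least 1 probe set. In the B16 lung 3 of the 9 were lower by 2-fold or more than in the control lung (Car3, Adipoq and Fabp4) and 1 was higher by 2-fold or more (Lipe). Over all 5968 measured genes, 4.73% were lower by 2-fold or more and 3.23% higher by 2-fold or more in that comparison. In the LLC lung 1 of the 9 was higher by 2-fold or more than in the control lung (Pck1) and 0 were lower by 2-fold or more, where 3.95% of 6000 genes were higher and 2.98% lower by that much. The B16 lung had 3 of the 9 lower by 2-fold or more than the LLC lung, the same Car3, Adipoq and Fabp4, and 0 higher by 2-fold or more, where 4.95% of 5984 genes were lower and 3.41% higher. Scaling each array to its median over every probe set, in place of the brighter ones, changed the split over all genes to 240 higher and 224 lower for B16 against control (193 and 282 otherwise) and to 267 and 248 for B16 against LLC (204 and 296 otherwise), and left the counts among the 9 as they were. Since the genes were chosen with these values in view, nothing is read from the shares. In whole lung, fewer cells of a type and less RNA per cell cannot be told apart.

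**Figure D1:**
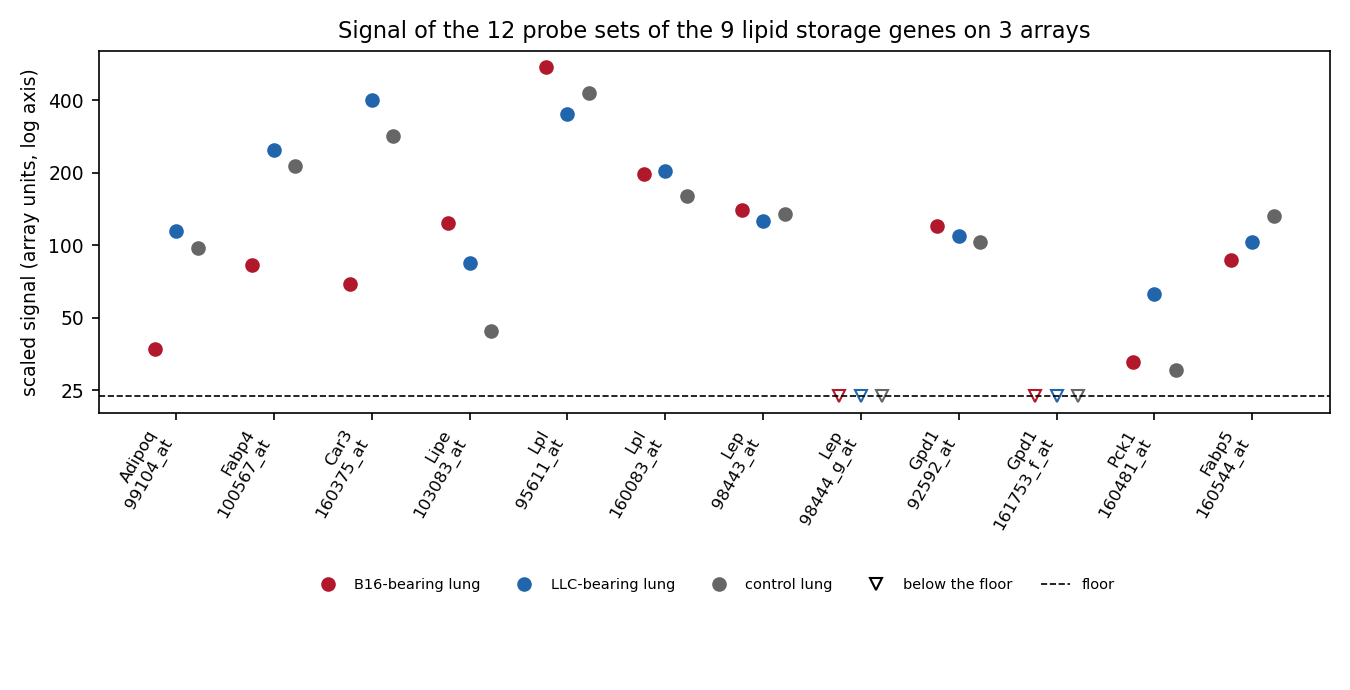
Scaled signal (log axis, array units) of each of the 12 probe sets in the B16 lung (red), LLC lung (blue) and control lung (grey), 1 array each. Filled circles are signals, open triangles mark signals below the floor of 23.6 (dashed line). Adipoq, Fabp4 and Car3 have their lowest point in the B16 lung, and Lipe has its highest there.

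Adipoq encodes adiponectin, a hormone secreted by fat cells. Its probe set (99104_at) read 37.0 in the B16 and 114 in the LLC lung, against 97.1 in the control lung. The B16 lung stood alone on the low side, 2.62-fold under control (log2 difference −1.39) and 3.08-fold under the LLC lung (−1.62). The LLC and control lung were close, at a log2 difference of 0.23. Among genes whose mean signal was from 50 to 100, as that of Adipoq was, 8.07% were lower by 2-fold or more in the B16 than in the control lung. A floor at the 60th percentile (71.3) lies above the B16 signal and ended the call, with differences of −0.45 from control and −0.68 from the LLC lung.

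Lep encodes leptin, the hormone by which fat stores are signalled to the brain. The brighter of its probe sets (98443_at) read 140 in the B16 and 126 in the LLC lung, against 134.6 in the control lung, so the 3 arrays were within 1.11-fold of each other. The other Lep probe set (98444_g_at) was below 0 on all arrays, at −50.2 in the B16, −95.0 in the LLC and −14.1 in the control lung, and gave no measurement. Adipoq was thus low in the B16 lung and the measured Lep signal was not, a contrast that rests on the brighter Lep probe set alone.

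Fabp4 encodes the fatty acid binding protein of fat cells, also called aP2. Its probe set (100567_at) read 82.8 in the B16 and 248 in the LLC lung, against 212.6 in the control lung. From control these are log2 differences of −1.36 in the B16 and 0.22 in the LLC lung, and the B16 lung was 2.99-fold lower than the LLC lung. Fabp4 and Adipoq thus showed near-equal differences. Fabp5, the epidermal member of the same family, read 87.2 in the B16 and 103 in the LLC lung, against 132 in the control lung. It was lower in both, by 1.52-fold in the B16 and 1.29-fold in the LLC lung, with neither reaching 2-fold. Fabp5 is also a keratinocyte gene. Of the measured skin and squamous epithelium markers 4 were higher and 5 lower in the B16 lung than in control (median −0.32) and 6 higher and 4 lower in the LLC lung (0.20), and Krt5 and Krt14 were below the floor throughout. Krt6a, a keratin of wounded epidermis and hair follicles, had the largest difference of that list on its brightest probe set (104369_at). There it read 120 in the B16 and 161 in the LLC lung, against 26.7 in the control lung, a signal little over the floor. That was 4.51-fold higher in the B16 and 6.05-fold higher in the LLC lung than in control. Its other probe set (104370_s_at) read 78.6 in the B16 and 77.9 in the LLC lung, against 74.7 in the control lung. The probe sets disagreed, so no direction is given for Krt6a. The part of skin and squamous cells in the Fabp5 reading was not tested.

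Car3 encodes carbonic anhydrase 3, a cytosolic enzyme abundant in fat cells and slow muscle. Its probe set (160375_at) read 68.9 in the B16 and 400 in the LLC lung, against 284.8 in the control lung. This was the widest spread among the 9 genes. The B16 lung was 4.13-fold lower than control (log2 difference −2.05) and 5.80-fold lower than the LLC lung (−2.54), while the LLC lung was 1.40-fold higher than control (0.49). Ranked from the lowest difference up, Car3 stood at place 24 of 5968 genes for B16 against control and at place 15 of 5984 for B16 against LLC. Of genes with a mean signal from 200 to 500, 1.42% were lower by 2-fold or more in the B16 than in the control lung. The reading rests on 1 probe set. Hepatocyte markers were high in the LLC lung, where Car3 also read highest, and their part in that reading was not tested.

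Lipe encodes hormone-sensitive lipase, which releases fatty acids from stored lipid. Its probe set (103083_at) ran the other way, with 124 in the B16 and 84.7 in the LLC lung, against 44.2 in the control lung. Both tumour-bearing lungs were higher than control, the B16 lung 2.80-fold (log2 difference 1.48) and the LLC lung 1.92-fold (0.94), and the B16 lung was 1.46-fold higher than the LLC lung. Of genes with a mean signal from 50 to 100, 4.79% were higher by 2-fold or more in the B16 than in the control lung. The Lipe call depends on the dim control signal: a floor at the 60th percentile of values (71.3) gave differences of 0.80 in the B16 and 0.25 in the LLC lung, and with a floor of 100 the B16 difference was 0.31.

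Lpl encodes lipoprotein lipase, which frees fatty acids from circulating triglyceride. The brighter probe set (95611_at) read 549 in the B16 and 351 in the LLC lung, against 427.4 in the control lung. The other (160083_at) read 197 in the B16 and 203 in the LLC lung, against 160.0 in the control lung. Both probe sets put the B16 lung above control, by 0.36 for the brighter and 0.30 for the other on the log2 scale. They disagreed on the LLC lung against control, at −0.28 for the brighter and 0.34 for the other, so no direction is given for Lpl there.

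Gpd1 and Pck1 supply glycerol 3-phosphate. Of 11 measured genes of this route, themselves included, 9 were higher and 2 lower in the B16 lung than in control (median 0.17), and of 12 measured in the LLC lung 8 were higher and 4 lower (0.13). Pcx (pyruvate carboxylase) and Agpat1 (an acyltransferase) were the 2 lower by 2-fold or more in the B16 lung, and 1 of the 2 calls ended under quantile normalization and under scaling to the median over every probe set. Pcx read 51.7 in the B16 and 132 in the LLC lung, against 108.1 in the control lung on its brightest probe set (162288_f_at). Its other probe set (93308_s_at) was below the floor throughout. Agpat1 was below the floor in the B16 lung and read 26.5 in the LLC lung, against 65.0 in the control lung, and so was also lower in the LLC lung, by 2.45-fold. Gpd1, the cytosolic glycerol 3-phosphate dehydrogenase, read 120 in the B16 and 109 in the LLC lung, against 103.4 in the control lung on 92592_at, a range of 1.16-fold, and its other probe set (161753_f_at) was below the floor throughout. Pck1, the cytosolic phosphoenolpyruvate carboxykinase, read 32.7 in the B16 and 62.8 in the LLC lung, against 30.2 in the control lung. Only the LLC lung stood out, 2.08-fold higher than control (log2 difference 1.06). The Pck1 signals were dim, and 7.36% of genes with a mean signal from 25 to 50 were higher by 2-fold or more in the LLC than in the control lung. Hepatocyte markers moved with it: 14 of 14 measured were higher in the LLC than in the control lung, 11 by 2-fold or more, and their median log2 difference was 1.52, and their part in the Pck1 reading was not tested. With the floor at the 60th percentile or at 100, Pck1 was not measured.

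**Figure D2:**
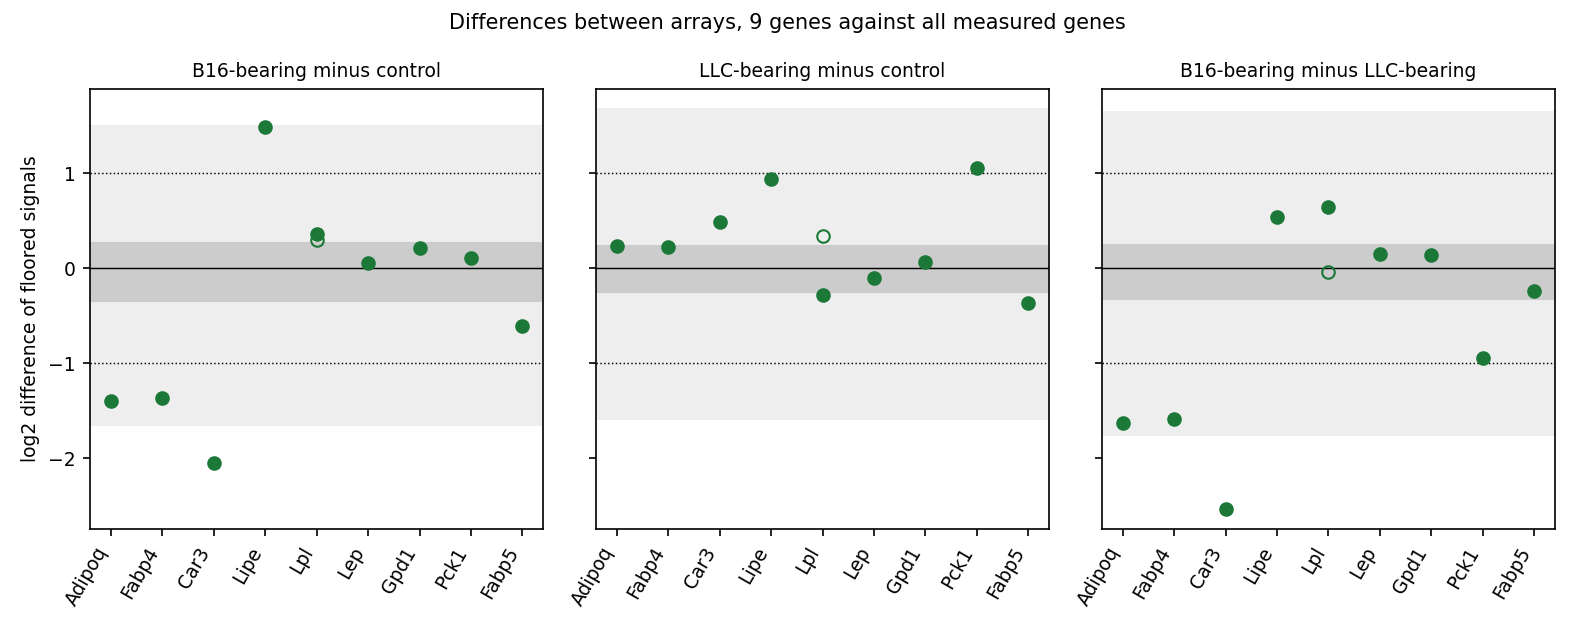
Log2 difference of floored signals for the 9 genes in 3 comparisons: B16 minus control, LLC minus control, and B16 minus LLC lung. Filled circles are the brightest probe set of a gene and open circles the second measured probe set of Lpl; dark and light bands hold the middle 50% of all measured genes and the range between their 1st and 99th percentile, and dotted lines mark 2-fold. Car3 lies below the light band in both comparisons of the B16 lung, at −2.05 and −2.54.

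The 9 genes did not move as one. Against control, 5 were higher and 4 lower in the B16 lung (49.3% and 50.7% of all measured genes), with a median log2 difference of 0.05 (−0.01 over all measured genes), and 6 were higher and 3 lower in the LLC lung (49.9% and 50.1% of all), with a median of 0.22 (−0.0005 over all). Between the tumour-bearing lungs, 4 were higher and 5 lower in the B16 lung (47.7% and 52.3% of all), with a median of −0.24 (−0.02 over all). Their signals summed to 1240.5 in the B16 and 1597 in the LLC lung, against 1467 in the control lung.

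Other genes of fat cells were checked from a list of 24, of which 17 had a probe set with a single symbol. Retn (resistin), Plin4 and Cidec (lipid droplet proteins), Pparg (the regulator of fat-cell formation), Slc2a4 (the insulin-responsive glucose transporter) and Apod were below the floor on all 3 arrays. The name of a fat-cell set thus rests on Adipoq, the brighter Lep probe set and genes shared with other cells. The other Lep probe set was below the floor throughout, and the 9 are called lipid storage genes here. Of the 11 measured in the B16 lung against control, 6 were higher and 5 lower, 1 of them higher by 2-fold or more and 0 lower by 2-fold or more, with a median of 0.02, and 8 were higher and 3 lower under scaling to the median over every probe set. That 1 was Slc27a1, a fatty acid transporter, which read 129 in the B16 lung and was below the floor in the LLC and control lungs. Thrsp, a lipogenic protein of fat and liver, read 80.0 in the B16 and 146 in the LLC lung, against 146.7 in the control lung, and Mest, known from expanding fat, read 33.1 in the B16 and 57.3 in the LLC lung, against 61.6 in the control lung. Thrsp and Mest were thus lowest in the B16 lung, 1.83-fold and 1.86-fold lower than control. In the LLC lung 4 of 10 measured were higher than control and 6 lower, 0 by 2-fold either way.

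The lipases that act before and after Lipe are also expressed in many tissues. Pnpla2, which encodes adipose triglyceride lipase, read 587 in the B16 and 391 in the LLC lung, against 372.1 in the control lung. Mgll, monoglyceride lipase, read 274 in the B16 and 215 in the LLC lung, against 248.0 in the control lung. Like Lipe, Pnpla2 was highest in the B16 lung, at 1.58-fold over control, below 2-fold. Of 7 measured genes of hormone-sensitive lipolysis signalling, 6 were higher and 1 lower in the B16 lung, 0 of them by 2-fold, with a median of 0.14. Adcy3, an adenylate cyclase, read 46.5 in the B16 and 82.8 in the LLC lung and was below the floor in the control lung, hence at least 1.97-fold higher in the B16 lung, and 1 gene passed 2-fold under quantile normalization and under scaling to the median over every probe set. Of the 7, 3 were higher and 4 lower in the LLC lung, 1 of them higher by 2-fold or more (Adcy3), with a median of −0.02.

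Genes that act with Lpl were read next. Of 10 measured genes of lipoprotein lipolysis and fatty acid uptake, 7 were higher and 3 lower in the B16 than in the control lung, with 3 higher by 2-fold or more, 1 lower by 2-fold or more and a median of 0.18. Under the 4 other scalings 2 or 3 were higher by that much and 0 or 1 lower. The 3 higher ones were Slc27a1, Slc27a4, another fatty acid transporter, and Angptl4, a secreted inhibitor of lipoprotein lipase. Angptl4 read 357 in the B16 and 214 in the LLC lung, against 177.7 in the control lung on its brightest probe set (96119_s_at). A further Angptl4 probe set (102114_f_at) gave the same order with 291 in the B16 and 141 in the LLC lung, against 123.5 in the control lung, and its other 2 probe sets were below the floor. Acsl4, an acyl-CoA synthetase, was the gene lower by 2-fold or more, with 207 in the B16 and 290 in the LLC lung, against 438 in the control lung. Against control, 9 of 10 were higher in the LLC lung, 1 of them by 2-fold or more, with a median of 0.24. That 1 was Apoc1, an apolipoprotein made mainly in liver, which read 118 in the B16 and 267 in the LLC lung, against 111.7 in the control lung.

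In the fatty acid binding protein family, 11 of 13 genes were on the array and 6 of them were below the floor throughout. All 4 measured in the B16 lung against control were lower, 3 of them at least 2-fold: Fabp4, Fabp3 and Fabp6. Fabp3, the heart and muscle form, read 25.4 in the B16 and 28.6 in the LLC lung, against 65.6 in the control lung. Fabp6, the ileal form, read 29.7 in the B16 and 31.9 in the LLC lung, against 85.8 in the control lung on its brightest probe set (99977_at). Its other probe set (160886_i_at) was below the floor throughout. Fabp3 and Fabp6 were low in both tumour-bearing lungs, whereas Fabp4 was low in the B16 lung alone. Fabp1, the liver form, was above the floor in the LLC lung, at 71.7, and below it in the others.

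Among carbonic anhydrases, 9 of 16 genes were on the array and 5 were measured in the B16 lung against control. Car3 and Car8 were lower by 2-fold or more, a call that held under each of the 4 other scalings, and the median over the 5 was −0.30. Car2 and Car4 lay near 0: all 5 read lower, but 1 turned higher with no array factor and 2 with scaling to the median over every probe set. Car8, a member without enzyme activity, read 89.7 in the B16 and 172 in the LLC lung, against 220.9 in the control lung. Car4, the membrane-bound form of lung capillary endothelium, read 579.5 in the B16 and 633 in the LLC lung, against 600.6 in the control lung, and Car2 read 465.5 in the B16 and 441 in the LLC lung, against 465.5 in the control lung.

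Enzymes that make fatty acids held no gene at 2-fold against control in the B16 lung. Of 11 measured lipogenic genes 6 were higher and 5 lower in the B16 lung than in control, with a median of 0.01, and under the 4 other scalings 4 to 8 were higher. In the LLC lung 7 were higher and 5 lower, 1 of them higher by 2-fold or more (Elovl6, a fatty acid elongase). Fasn, fatty acid synthase, read 385 in the B16 and 440 in the LLC lung, against 412.6 in the control lung, and Scd1, stearoyl-CoA desaturase 1, read 1663 in the B16 and 1635 in the LLC lung, against 1599 in the control lung. Of 16 measured genes of fatty acid oxidation 9 were higher and 7 lower in the B16 lung, with 1 higher by 2-fold or more and a median of 0.06 (8 and 8 with factors from the values above the floor). This was Ucp3, a mitochondrial carrier of muscle and brown fat, with 67.9 in the B16 and 53.8 in the LLC lung, against 25.3 in the control lung, a signal little over the floor. In the LLC lung 9 were higher and 8 lower, and Ucp3 was again the one past 2-fold.

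Brown fat markers were mostly unmeasured. Of 9 on the array, Ucp1, Cidea, Cox7a1, Ppargc1a and Elovl3 were below the floor on all 3. Of 4 measured, 1 was higher and 3 lower in the B16 lung than in control, and 3 were higher and 1 lower in the LLC lung. Under quantile normalization and under scaling to the median over every probe set the B16 split was 2 and 2. Dio2, a thyroid hormone deiodinase, read 25.8 in the B16 and 72.4 in the LLC lung and was below the floor in the control lung. Ebf2, a transcription factor of brown fat precursors, read 84.7 in the LLC and 46.6 in the control lung and was below the floor in the B16 lung. Cox8b, a cytochrome oxidase subunit of muscle and brown fat, read 82.9 in the B16 and 94.8 in the LLC lung, against 84.1 in the control lung.

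Of lipid droplet and lipofibroblast genes, Plin2, a droplet coat protein found in many cells, read 801 in the B16 and 670 in the LLC lung, against 653.5 in the control lung. Zbtb16, a transcription factor placed in this list and known to respond to glucocorticoids, read 859 in the B16 and 630 in the LLC lung, against 307.8 in the control lung, and was higher by 2-fold or more in both tumour-bearing lungs on that probe set (92202_g_at), while its second was below the floor throughout. Among genes of leptin and adiponectin signalling 5 were higher and 2 lower in the B16 lung than in control (median 0.10), and 6 were higher and 1 lower in the LLC lung (0.14). Lepr, the leptin receptor, read 116 in the B16 and 68.1 in the LLC lung, against 67.0 in the control lung. Adipor1, an adiponectin receptor, read 89.0 in the B16 and 71.9 in the LLC lung and was below the floor in the control lung, hence at least 3.77-fold higher in the B16 and 3.05-fold in the LLC lung, whereas Adipor2 read 398 in the B16 and 398 in the LLC lung, against 369.8 in the control lung. Prkag1, a regulatory subunit of the AMP-activated kinase, was the gene of this list lower by 2-fold or more in the B16 lung, with 35.8 in the B16 and 110 in the LLC lung, against 115.2 in the control lung (3.21-fold lower in the B16 lung). Socs3, an inhibitor of leptin receptor signalling, read 62.5 in the B16 and 148 in the LLC lung, against 58.8 in the control lung. That was 2.51-fold higher in the LLC lung on its brightest probe set (92232_at). Its other probe set (162206_f_at) read 66.7 in the B16 and 103 in the LLC lung, against 68.0 in the control lung. It was thus higher in the LLC lung too, but below 2-fold.

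Markers of the other cells that express these genes were read beside them. All 12 endothelial markers with a probe set were above the floor on each array, and 7 were higher and 5 lower in the B16 lung than in control, with a median of 0.03 (between −0.02 and 0.14 under other scalings) and summed signals of 10857 in the B16 and 10078 in the LLC lung, against 9784 in the control lung. Vwf, the von Willebrand factor, was the one past 2-fold, at 2.07-fold higher in the B16 lung. Of 13 measured macrophage markers, 5 were higher and 8 lower in the B16 lung than in control, with a median of −0.43. Against the LLC lung 10 of the 13 were lower, 3 by 2-fold or more, and the median was −0.50. Summed over the 15 on the array, with negative signals as 0, macrophage markers gave 4659 in the B16 and 6841 in the LLC lung, against 5785 in the control lung. Of the 13, 10 were higher in the LLC lung than in control, with a median of 0.18. Fabp4 and Adipoq were low in the same B16 lung as these markers, and their part in those readings was not tested. Marco and Adgre1 were below the floor throughout. Of 14 measured muscle markers 13 were lower in the B16 and 12 in the LLC lung than in control, with medians of −1.12 in the B16 and −1.24 in the LLC lung. Car3, also a muscle gene, was lower in the B16 and higher in the LLC lung than in control, and the part of muscle in its readings was not tested.

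**Figure D3:**
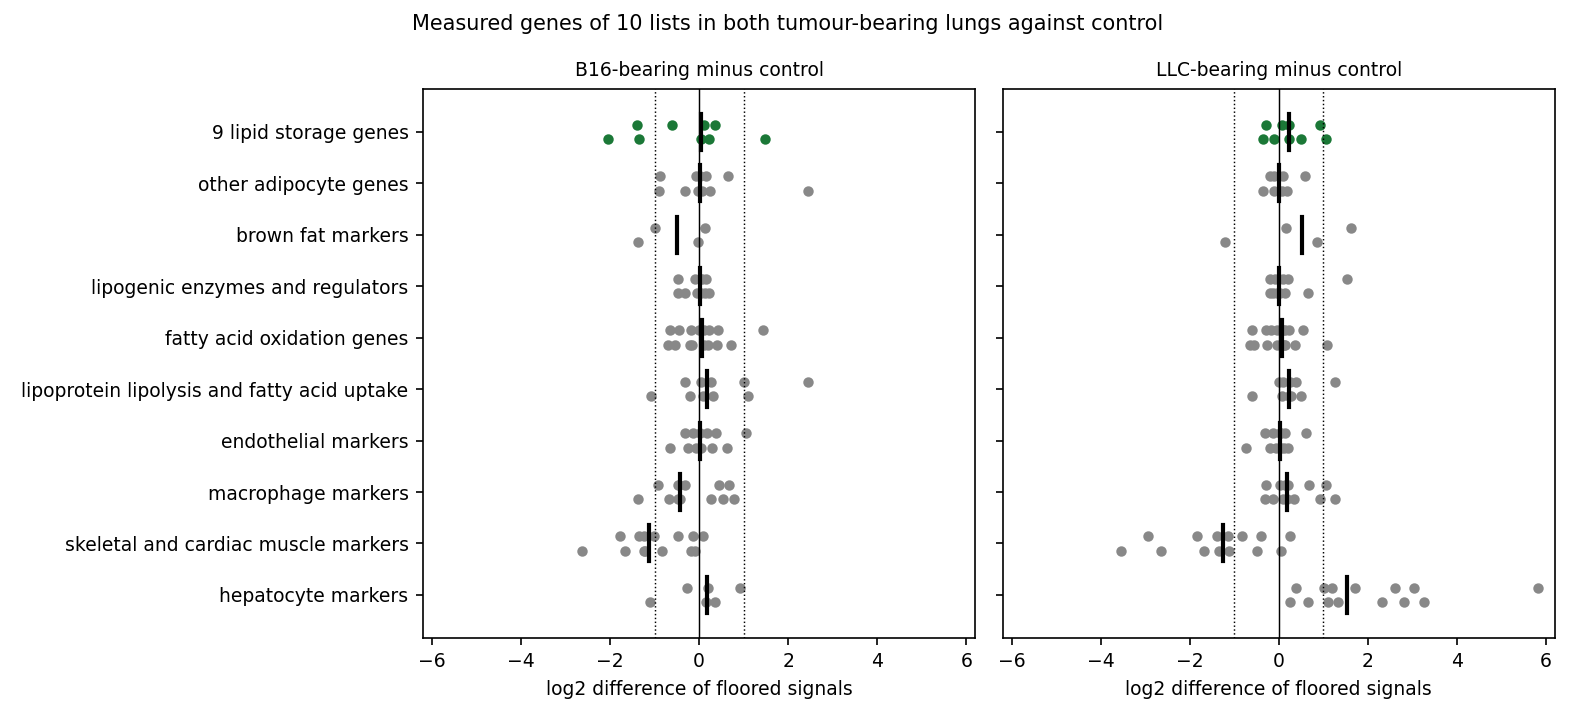
Log2 difference of floored signals for each measured gene of 10 lists, in the B16 (left) and LLC lung (right) against control. Points are genes (brightest probe set), thick bars are list medians and dotted lines mark 2-fold; a point whose dimmer side is below the floor is a lower bound of the difference. The 9 lipid storage genes (green) spread from −2.05 to 1.48 in the B16 lung, while muscle markers lie low in both panels and hepatocyte markers high in the LLC lung.

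The genes whose readings lay nearest those of Adipoq were found by distance in the 2 log2 differences from control, among 3667 genes with a signal of at least 100 on at least 1 array. Fabp4 was the nearest, at 0.03 log2 units, followed by Gzma (granzyme A, a protease of cytotoxic lymphocytes), Ccl5 (a chemokine), Adam11 and Cd68 (a lysosomal protein of macrophages) at 0.05 to 0.12. For Fabp4 the nearest was Adipoq, followed by the same 4 genes in the same order. Gzma read 49.4 in the B16 and 154 in the LLC lung, against 133.4 in the control lung, and Ccl5 read 127 in the B16 and 414 in the LLC lung, against 348.9 in the control lung. Car3 stood at place 109 from Adipoq, Fabp5 at 403, Lep at 1855, Gpd1 at 2425, Lpl at 3027 and Lipe at 3617. Adipoq and Adam11 reached a signal of 100 only in the LLC lung, at 114 and 104, where they read highest. Adipoq and Fabp4 were also chosen with these values known, so their nearness is no support for a shared pattern. Likeness over 3 arrays rests on 2 differences and a shared control signal, so it is a description only.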

How the data were processed

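Total RNA from frozen lung was extracted with TRIzol and labelled with biotin as cRNA, per the labels' protocols. The deposited intensity values are linear, 1 for each probe set of an array, and negative for about 20% of them, and how the negative values arose is unrecorded. The authors' software is not given in the sources used here. After trimming 2% of values at each end, every array had a mean of 100.1, so a scaling before deposit is likely but unrecorded. Names were taken from the platform annotation of GEO. Of 12422 non-control probe sets 10833 had a single symbol, of which 10817 were matched by gene ID to RefSeq (GRCm38.p6) and 0 needed an update.

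Each array was multiplied by a factor chosen so that brighter probe sets had a median log2 ratio of 0 to control (0.987 for B16, 1.01 for LLC and 1 for control). Values below the floor of 23.6 were raised to it, then log2 values were computed. A gene counted as measured when either array compared exceeded the floor, and its brightest probe set stood for it. Folds of at least 2 were counted without a test, and the number of arrays limits the precision. The 9 genes and the 17 other lists were chosen with earlier results of these data known. All probe sets of the 9 genes were named, and the 5 genes nearest to Adipoq and Fabp4. From the other lists, up to 4 genes of large difference and any gene past 2-fold could be named, and not all were. Further list genes were named after their values were seen, and not every further probe set of a list gene is given. The steps were tested on simulated data, and computed with Python 3.11.15, numpy 2.4.6 and pandas 2.3.3.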

Additional observations from a re-analysis of the deposited data

Results flagged for a closer look

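The difference from control had opposite signs in the B16 and LLC lung for 5 of the 10 measured probe sets. The share over all genes was not counted, so nothing is read from this count. It goes by sign alone and takes in differences near 0, such as those of Lep. With 1 array a group, and the control array shared, the difference between the models was not tested. For Adipoq the log2 difference was −1.39 in the B16 and 0.23 in the LLC lung, for Fabp4 −1.36 in the B16 and 0.22 in the LLC lung, and for Car3 −2.05 in the B16 and 0.49 in the LLC lung. For the brighter probe set of Lpl it was 0.36 in the B16 and −0.28 in the LLC lung, and for Lep 0.053 in the B16 and −0.098 in the LLC lung. For Adipoq, Fabp4 and Car3 the B16 side passed 2-fold and the LLC side did not, and the second Lpl probe set was higher in both.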

How the results depend on the processing

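Each array is a single sample, and the lack of replicates is the main limit. The choice of floor and scaling is a further limit, and stability under it does not stand in for replicates. No paired analysis was possible because no replicate numbers are shared within a group of 1 array. The processing was varied in 9 alternatives, of which scaling to the median over every probe set was chosen after seeing the data. It moved the B16 array by 0.11 on the log2 scale. The 10 measured probe sets were followed 1 by 1 under the 7 alternatives that change the floor or the scaling. Of their differences 0 reversed a 2-fold direction, and 196 of the 202 that stayed measured moved by under 1.5-fold. A change of floor cannot turn a sign. Array factors that differ this little cannot reverse a 2-fold difference or move one by 1.5-fold. Apart from quantile normalization, the 0 was thus fixed in advance, and these counts are no evidence that the differences are reliable. Differences that a raised floor left unmeasured are not in the 202. These were all of Pck1 at both raised floors. At a floor of 100 they were also Adipoq for B16 against control and Lipe for LLC against control. A higher floor ended calls of dim genes: with the floor at the 60th percentile or at a signal of 100, 0 of the 9 genes were 2-fold higher in the B16 lung against control and 0 in the LLC lung against control, and Adipoq in the B16 lung against control was −0.45 at the 60th percentile. With the floor at 100, Adipoq was −0.19 between the B16 and LLC lung; at the 60th percentile it was −0.68. Over all genes the counts higher and lower by 2-fold fell to 59 and 65 (60th percentile) and 37 and 33 (floor of 100) for B16 against control, 73 and 40, and 43 and 18, for LLC against control, and 62 and 88, and 31 and 57, for B16 against LLC. Fewer dim genes can pass such a floor. Car3 and Fabp4 were lower by 2-fold or more in the B16 lung against both other lungs under the 7 alternatives that change the floor or the scaling.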
